A study of Danio rerio with 7 samples.

Results

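The restrainers of translation followed here are 7 zebrafish genes, chosen by identifier: the eIF2 kinases eif2ak1, eif2ak2 and EIF2AK3, the eEF2 kinase EEF2K, and the 4E-binding proteins eif4ebp1, EIF4EBP2 and EIF4EBP3. All 7 were among the 4449 genes that the deposited data divide over 8 modules, each gene lying in exactly 1 module. The 7 were chosen with earlier results of these data known, so finding all of them in a module is no result. Their relatives EIF2AK4, pkz and a second eif4ebp3 identifier lay in no module and were not among those chosen. The cells were labelled as border zone cardiomyocytes, heart muscle cells beside an injury. They were taken from the ventricles of adult fish 7 days after cryoinjury, a freezing injury of the heart, and sorted singly by the reporter nppa:mCitrine, which fish of both genotypes carried. By their labels, 4 plates of 384 wells came from hmga1a mutant fish and 3 from wildtype fish; the sources used here give neither the mutant allele nor the sex and exact age of the fish, nor whether plates came from separate fish. The hmga1a gene encodes a chromatin protein of the high mobility group, and the plates were made to set mutant against wildtype border zone cells.

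The module files hold gene identifiers without any value per plate or cell. Levels of the 7 genes in mutant and wildtype cells, their replicate error and the depth of each plate are therefore unknown, and the genotypes cannot be compared. What can be read is which genes were placed in a module together and what the annotation chart of that module lists. The sources used here do not say how the modules were built, so sharing a module is reported as that fact alone. The sorted cell type could likewise not be checked by level. All 5 of the cardiomyocyte markers that the name table holds lay in a module (tnnt2a and ttn.2 could not be looked up). Of these, myl7, cmlc1, actc1a and tnnc1a lay in module 7, which also held eif4ebp1 and EIF4EBP2, and nppa lay in module 5. Such markers of leukocytes, endothelium, fibroblasts, epicardium and erythrocytes lay in a module for 9 of 12, so the modules also hold genes that mark other cells. Among these 9, ptprc, lcp1, cdh5 and col1a1a lay in module 1, which also held eif2ak2 and EIF2AK3. The others lay in module 3 (coro1a, spi1a, flt1 and erg) and module 4 (col1a2). Whether the placement of the restrainers follows cell type was not tested.

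Cells can slow protein synthesis at several steps. Kinases of the eIF2 family phosphorylate initiation factor eIF2, which lowers the supply of initiator tRNA to most messages while a few stress messages such as that of ATF4 are translated better. The 4E-binding proteins hold the cap-binding factor eIF4E away from eIF4G until the kinase complex mTORC1 phosphorylates them, and eEF2 kinase slows elongation by phosphorylating eEF2. Heart muscle is a tissue in which mTORC1, energy supply and wall stress are known to set the rate of protein synthesis.

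Only 4E-binding proteins shared the module of the ribosomal genes. Module 7 held all 68 cytosolic ribosomal protein genes recognised by symbol in any module. Of the 7 restrainers, 2 lay in it, eif4ebp1 (ENSDARG00000043608) and EIF4EBP2 (ENSDARG00000031819). The other 5 lay elsewhere: all 4 kinases, and the remaining 4E-binding protein. Module 7 took in 8.52% of the genes of all modules, against 28.6% of the restrainers (exact 95% binomial interval 3.67% to 71.0%, Clopper-Pearson). With so few genes, chosen with earlier results known, the count of 2 is set beside the share of all genes as description only. No excess of restrainers is read from it. The interval treats the 7 genes as a random draw, which they are not, so it measures no error of this lookup.

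The eIF2 kinases lay in 2 modules. The gene eif2ak2 (ENSDARG00000068729), the kinase that double-stranded RNA activates, and EIF2AK3 (ENSDARG00000062139), the kinase of the endoplasmic reticulum membrane known as PERK, lay in module 1. That module has most genes, 34.7% of all, against which 2 of 7 restrainers (28.6%) is no excess. The gene eif2ak1 (ENSDARG00000093182), the kinase that haem shortage activates, lay in module 8, which has fewest genes, 163, or 3.66% of all. EEF2K (ENSDARG00000035835) and EIF4EBP3 (ENSDARG00000041607) were both in module 6, which holds 9.84% of all genes. Modules 2, 3, 4 and 5 held no restrainer. Of the 21 pairs that the 7 genes form, 3 lay in the same module: eif2ak2 with EIF2AK3, eif4ebp1 with EIF4EBP2, and EEF2K with EIF4EBP3. The last of these pairs acts on different factors, eEF2 and eIF4E. How often pairs of module genes at large share a module was not worked out, so no excess is read from this count.

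Names limit 1 of these placements. The name table gives a second identifier, ENSDARG00000054916, the lower-case symbol eif4ebp3, and that identifier lay in no module. RefSeq lists both eif4ebp3 and eif4ebp3l, so which 4E-BP3 copy stands behind the capitalised symbol in module 6 is not known. EIF2AK4, the kinase that senses uncharged tRNA, and pkz, a fish kinase close to eif2ak2, were in the name table and in no module. The deposited lists are sorted by identifier in several successive ascending runs whose meaning is not given. Of the 7 restrainers, 6 lay in the first run of their list, and EIF2AK3 lay in the second run of module 1, at place 1167 of 1543. Of all 4449 module genes, 3231 lay in a first run, and in module 1 it was 70.3%. Nothing particular to the restrainers is read from their runs.

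**Figure D1:**
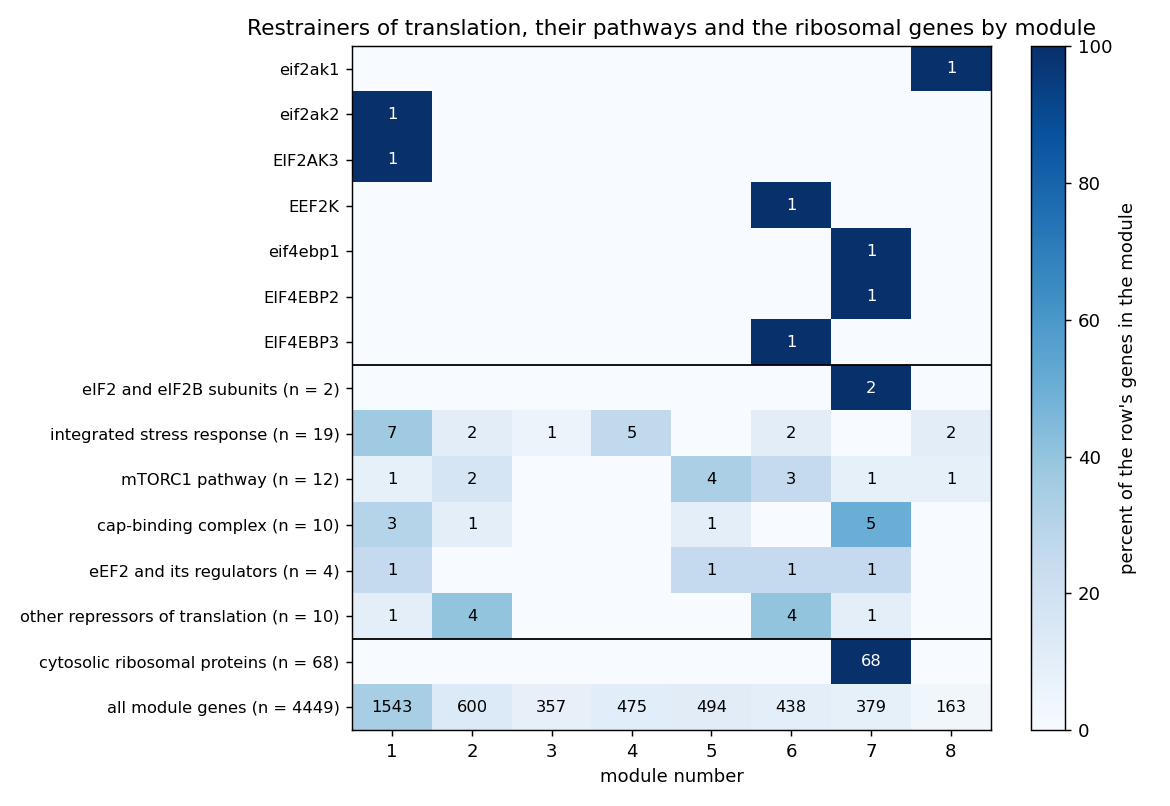
Rows are the 7 restrainers (top), genes of 6 pathway lists matched without a final a or b (middle), and the cytosolic ribosomal proteins and all module genes (bottom); columns are module numbers, printed numbers are counts of genes and shading is the percent of a row's genes in the module. All 68 ribosomal proteins recognised by symbol and 2 of the restrainers lie in module 7, while the 4 kinases lie in modules 1, 6 and 8.

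Of the factors on which the restrainers act, some copies lay with the ribosomal genes and some did not. EIF2S1, the alpha subunit of eIF2 that the eIF2 kinases phosphorylate, was in module 7 together with EIF2B2, a subunit of the exchange factor eIF2B that phosphorylated eIF2 blocks. EEF2, the substrate of eEF2 kinase, was in module 7, and so was eif4eb, a cap-binding eIF4E. Thus eif4ebp1 and EIF4EBP2 shared the module of their target, and none of the 4 kinases did. Other copies lay elsewhere: eef2a.1, a further eEF2 gene, lay in module 5, and eif4e1c, a fish member of the eIF4E family, lay in module 1 with 2 eIF2 kinases. EIF2S1 and EEF2 were found only when symbols were compared without a final a or b or through RefSeq synonyms, and which zebrafish copy each stands for is not known. With symbols compared exactly, eif4eb alone of these direct targets was found in module 7, against eef2a.1 and eif4e1c outside it.

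Around the 4E-binding proteins, the cap-binding list had more genes in module 7 than in any other module. The list was written with the placement of the restrainers known, and no test was made. Of its 7 genes in any module, 5 lay there (71.4%, against 8.52% of all module genes): eif4eb, the helicase eif4a1b, and the poly(A)-binding proteins pabpc1a, pabpc1b and PABPC4. The other 2, eif4e1c and mknk1, a kinase of eIF4E, lay in module 1. Matched without a final a or b, the list had 10 genes and still 5 in module 7. The added ones were EIF4G1 in module 1, MKNK2 in module 2 and EIF4G2 in module 5, so the scaffold EIF4G1, with which 4E-binding proteins compete for eIF4E, was not in the module of eif4ebp1 and EIF4EBP2.

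The mTORC1 pathway relieves the block by 4E-binding proteins. Of its 8 listed genes in any module, 0 lay in module 7, which holds 8.52% of all module genes, so that a count of 0 among 8 does not set the list apart. There were 3 in module 5 (IRS1, sesn3 and akt3b), 2 in module 2 (DEPDC5 and FNIP2), and 1 each in modules 1, 6 (akt2) and 8. In module 1 this was rragca, a Rag GTPase that brings mTORC1 to the lysosome, and akt1s1, which encodes the mTORC1 inhibitor PRAS40, shared module 8 with eif2ak1. Without the final a or b, 12 genes were found, and TSC1, a brake on mTORC1, was then the only one of them in module 7 (8.33%, against 8.52% of all module genes). Module 6 gained INSR, the insulin receptor, and an identifier of its adaptor IRS2. That made 3 in the module of EEF2K and EIF4EBP3 (25.0%, against 9.84% of all module genes). Module 5, which held no restrainer, gained another identifier of IRS2 and had more of the list, 4 (33.3%, against 11.1% of all module genes).

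The list of the integrated stress response, the programme downstream of eIF2 phosphorylation, had 18 genes in any module. It was wider than that programme and also took in genes of other arms of the unfolded-protein response, such as atf6. Module 7 held 0 of the 18, against 8.52% of all module genes, so that a count of 0 does not set the list apart. Module 1 held 6 of them (33.3%, against 34.7% of all module genes), a share close to that of all genes. They were the transcription factor genes atf4b and DDIT3, the unfolded-protein sensor atf6, the asparagine synthetase ASNS, the amino acid transporter subunit slc3a2a, and ppp1r15a, a phosphatase subunit that reverses eIF2 phosphorylation. CHAC1, a glutathione-degrading enzyme, and VLDLR, a lipoprotein receptor, lay in module 6. The gene dnajc3a, whose mammalian counterpart inhibits EIF2AK3 and EIF2AK2, and atf5b, a relative of ATF4, lay in module 8 with eif2ak1 (2 of 18, or 11.1%, against 3.66% of all module genes). Module 4, which held no restrainer, had 5 of the 18 (27.8%, against 10.7% of all module genes). Among them were ppp1r15b, the constitutive counterpart of ppp1r15a, and TRIB3, both named after their place was seen. The remaining 3 lay in modules 2 and 3.

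EEF2K lay in module 6 with PRKAA1, the catalytic subunit of AMP-activated kinase, which is known in mammals to switch eEF2 kinase on when energy is short. A calmodulin gene, calm3b, whose product the kinase depends on, lay in module 1. With eef2a.1 in module 5 these were the 3 genes found of that list, and matching without the final letter added EEF2, 4 in all.

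Module 6 also held other repressors of translation. Of the 8 found in any module, 4 lay in this module, which holds 9.84% of all module genes. They were FMR1 and FXR1, RNA-binding proteins of the fragile X family, CPEB2, a further RNA-binding protein, and AGO2, the effector of microRNAs. YBX1, a cold-shock protein that coats messages, was the 1 in module 7. CYFIP1, which in mammals links FMR1 to eIF4E, was in module 1, and GIGYF2 and TNRC6A, both adaptors of message silencing, were in module 2. With the final letter ignored, 10 were found and the count in module 6 stayed at 4, while module 2 also had 4 with GIGYF1 and CAPRIN1. Counts of this size carry no test, and the lists were written with the placement of the restrainers already known.

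The annotation charts listed the binding proteins and the kinases under different terms. Terms record the known function of a gene, so this split follows from the annotation and is no finding about these cells. A chart lists, for its module, the terms that the authors' enrichment analysis returned. No listed term had an unadjusted p above 0.1 in the authors' deposited table. Absence from a chart is thus not absence of annotation. Of the 834 terms in the 8 charts, 27 held at least 1 restrainer, and 10 of these 27 had a Benjamini-adjusted p under 0.05 in the authors' deposited table, 37.0% against 13.9% of all terms. Those 10 came from modules 6 and 7, with 5 each. The 9 in module 1 and the 1 in module 8, which held eIF2 kinases, were at or above 0.05 in the authors' deposited table. Charts differed in how many of all their terms passed: 83 of 155 for module 7, 9 of 115 for module 6, 9 of 202 for module 1 and 1 of 18 for module 8. Of the terms with a restrainer, 5 of 7 passed in module 7 and 5 of 10 in module 6. The pooled shares mix these charts. A term's enrichment describes the whole module and is no property of the restrainer in it. The terms also overlap heavily in their genes.

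**Figure D2:**
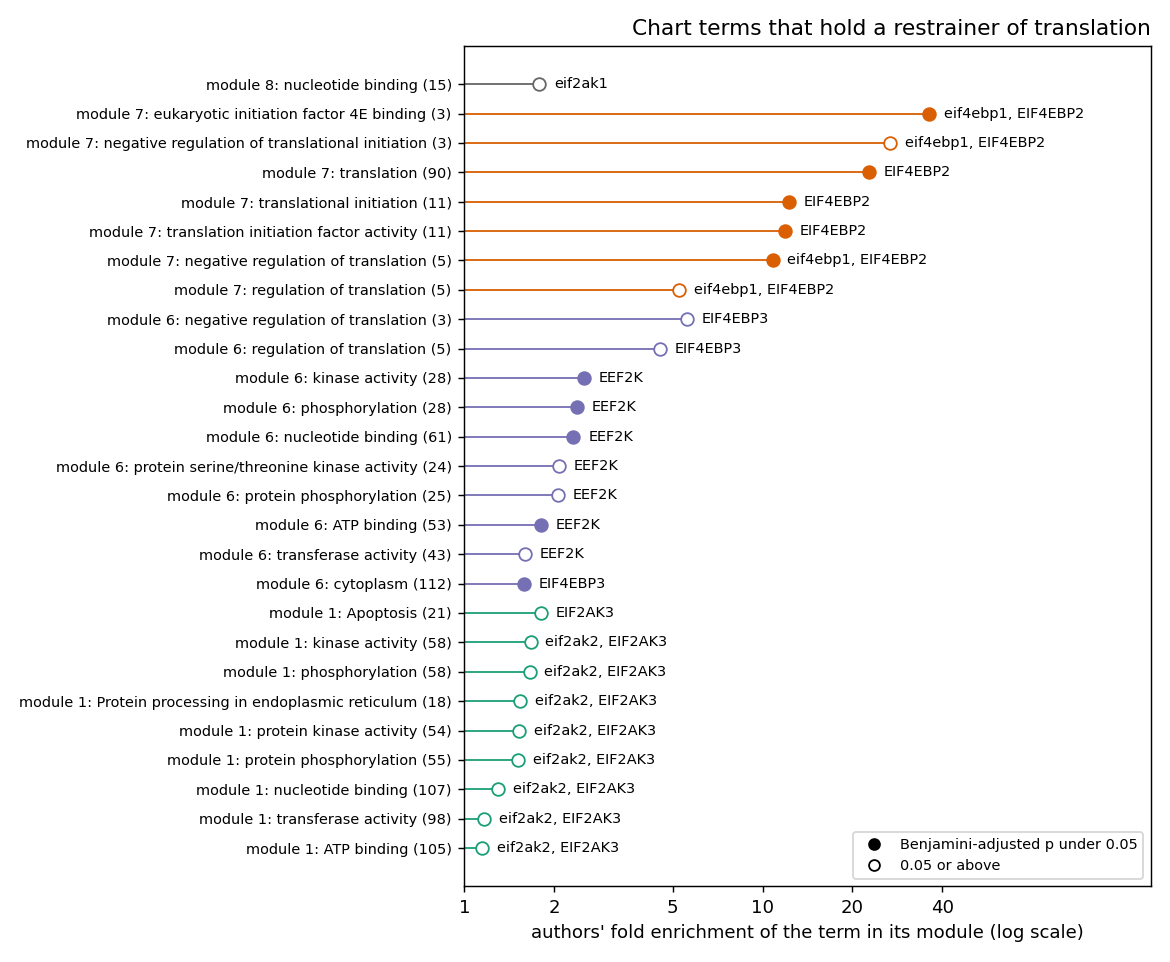
Each line is a chart term that holds a restrainer, with its module and, in brackets, its count of module genes; the horizontal axis is the authors' fold enrichment on a log scale, and filled points have a Benjamini-adjusted p under 0.05. Terms with the 4E-binding proteins of module 7 lie between 5.24-fold and 36.2-fold. Terms with EIF4EBP3 of module 6 lie between 1.58-fold and 5.58-fold. Terms with a kinase lie between 1.14-fold and 2.52-fold, a range that overlaps that of EIF4EBP3.

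In module 7 the 4E-binding proteins appeared under terms of translation only. The term eukaryotic initiation factor 4E binding held 3 module genes, eif4ebp1, EIF4EBP2 and YBX1, out of 6 genes in the background, with 36.2-fold enrichment and a Benjamini-adjusted p of 0.0417 in the authors' deposited table. The same 3 genes made up negative regulation of translational initiation, 3 of 8 background genes, at 26.7-fold and a Benjamini-adjusted p of 0.0750 in the authors' deposited table. Negative regulation of translation held 5 of 33 background genes at 10.8-fold, with a Benjamini-adjusted p of 0.0216 in the authors' deposited table. Its further members were malsu1, an assembly factor of the mitochondrial ribosome, and RPL13A, a ribosomal protein known in mammals to silence selected messages.

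The 2 copies differed in their annotation. EIF4EBP2 was also listed under translation, a term of 90 module genes of which 61 were cytosolic ribosomal proteins, at 22.7-fold and a Benjamini-adjusted p of 2.26e-95 in the authors' deposited table. Translational initiation and translation initiation factor activity, of 11 genes each, listed it as well, at 12.3-fold and 11.9-fold in the authors' deposited table. There it stood beside EIF2S1, EIF2B2, eif4eb and eif4a1b, and beside 5 subunits of the scaffold factor eIF3, among them EIF3G. The gene eif4ebp1 was in none of these 3 terms, and shared a term with only 2 ribosomal protein genes, RPL13A and RPL10, against 61 for EIF4EBP2. The 4E-binding proteins are known as inhibitors of initiation and not as initiation factors, so the last of these terms describes the annotation of the identifier.

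EIF4EBP3 had the same kind of terms in another module. Regulation of translation held 5 genes of module 6, EIF4EBP3, FMR1, FXR1, CPEB2 and AGO2, of 68 in the background, at 4.51-fold with a Benjamini-adjusted p of 0.940 in the authors' deposited table. In module 7 that term also held 5 genes, eif4ebp1, EIF4EBP2, RPL10, pabpc1a and the deadenylase CNOT6L, at 5.24-fold with a Benjamini-adjusted p of 0.187 in the authors' deposited table. Negative regulation of translation held 3 genes of module 6, EIF4EBP3, FMR1 and FXR1, at 5.58-fold with a Benjamini-adjusted p of 1 in the authors' deposited table. Neither term passed the adjustment for module 6. Terms whose name contains the word translation were listed for modules 6 and 7 only, 3 for module 6 and 14 for module 7, and 0 and 10 of them passed in the authors' deposited table. EIF4EBP3 was not listed with a ribosomal protein gene under any term. The remaining term of EIF4EBP3, cytoplasm, held 112 genes of module 6 at 1.58-fold with a Benjamini-adjusted p of 1.45e-05 in the authors' deposited table.

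No kinase was listed under a term of translation. The charts of modules 1 and 8 hold 0 terms naming translation, so the eIF2 kinases could not have been listed under one. EEF2K was listed under 7 terms of kinase, transferase and nucleotide-binding function, of which kinase activity held 28 genes of module 6 at 2.52-fold with a Benjamini-adjusted p of 0.00345 in the authors' deposited table. For nucleotide binding the module 6 chart gave 61 genes at 2.32-fold with a Benjamini-adjusted p of 3.13e-07 in the authors' deposited table. Among the 20 genes that shared all 7 terms with EEF2K were MAP3K5, a stress kinase, PRKCD, a protein kinase C, akt2, camk2d2, a calcium and calmodulin kinase, and CDC42BPB, the first 5 in deposited order.

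The kinases eif2ak2 and EIF2AK3 were listed almost identically, with 8 terms in common out of 8 for eif2ak2 and 9 for EIF2AK3. Of these terms phosphorylation had the lowest adjusted p, with 58 genes of module 1 at 1.66-fold and a Benjamini-adjusted p of 0.0837 in the authors' deposited table. Kinase activity, also of 58 genes, followed at 1.67-fold with a Benjamini-adjusted p of 0.0888 in the authors' deposited table. Protein processing in endoplasmic reticulum placed both beside atf4b, DDIT3, atf6 and DERL1, a channel component of protein export from the reticulum, with 18 genes at 1.54-fold and a Benjamini-adjusted p of 0.706 in the authors' deposited table. EIF2AK3 alone was also under apoptosis, with 21 genes at 1.80-fold and a Benjamini-adjusted p of 0.196 in the authors' deposited table, where atf4b and DDIT3 appeared again. Modules without a restrainer listed these terms too, none with a Benjamini-adjusted p under 0.05 in the authors' deposited table. There protein processing in endoplasmic reticulum was at 2.40-fold in module 2 and 1.97-fold in module 5. Apoptosis was at 2.01-fold in module 2. After these 2, the next most alike were 38 genes of module 1 that shared 7 terms with each, the first in deposited order being POMK, FGR, ptk2ab and tyro3. They too are kinases or kinase-like proteins, and none is known as an eIF2 kinase.

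The gene eif2ak1 had 1 term, nucleotide binding, with 15 genes of module 8 at 1.79-fold and a Benjamini-adjusted p of 1 in the authors' deposited table. The other 14 genes of that term included ADSS2, NUAK1, PRKCQ, atp2a1l and SUCLG2. The chart of module 8 names only 28.2% of the module's genes, against 60.8% to 71.8% in the charts of the other modules, and lists no term for kinases. The short annotation of eif2ak1 therefore stands beside a thin chart, and its part in that was not tested.

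**Figure D3:**
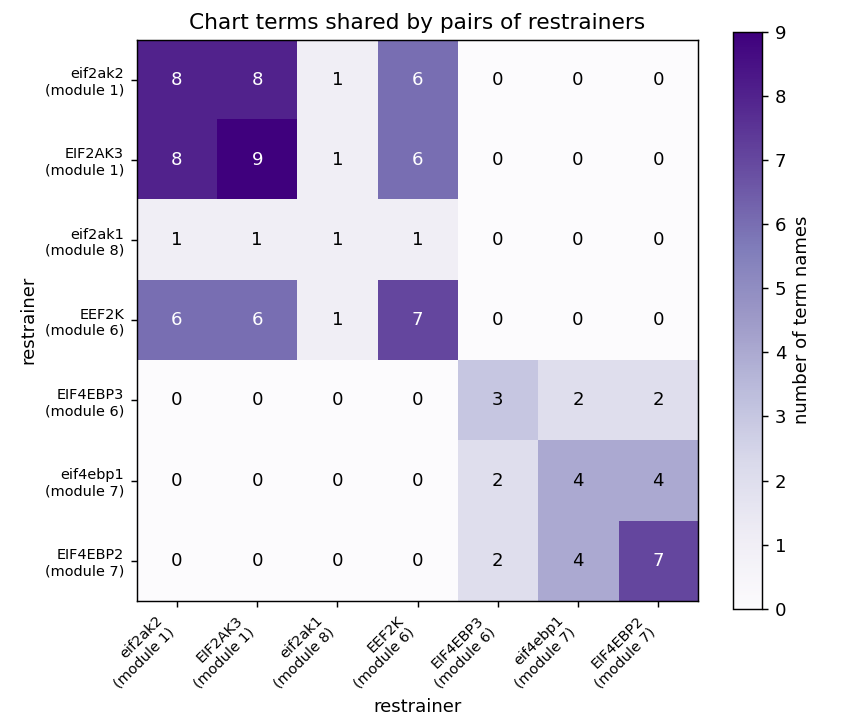
Both axes list the 7 restrainers with their modules, and each cell gives the number of chart term names that a pair has in common, with a gene's own number of terms on the diagonal. The kinases form 1 block and the 4E-binding proteins another, with 0 terms in common between them. This holds also for EEF2K and EIF4EBP3, which share module 6. Terms record the function of a gene, so the blocks follow from the annotation.

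Counted by term name across charts, 12 of the 21 pairs had no term in common, and these were all the pairs of a kinase with a 4E-binding protein. EEF2K shared 6 term names with each of eif2ak2 and EIF2AK3 from another module, and EIF4EBP3 shared 2 with each of eif4ebp1 and EIF4EBP2. The overlap of eif2ak1 with each other kinase was 1 broad term, nucleotide binding. The term names in common thus divided the 7 genes by kind of protein, which is what such terms record. Whether the modules also did so cannot be read from so few pairs. Of the 3 pairs in the same module, 2 were of a kind, while EEF2K with EIF4EBP3 was not. The eIF2 kinases and the 4E-binding proteins were each divided over 2 modules.

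Position in the genome was read from the flanking genes. In the gene order of RefSeq's assembly GRCz12tu, 14 protein-coding genes flank the 7 restrainers. Of these, 11 had a symbol in the name table, and 2 of the 11 lay in a module. That table holds 29201 names, and 3651 module genes have a symbol in it, so nothing particular to the restrainers is read from 2 of 11. The gene ppa1b, of an inorganic pyrophosphatase, lies next to EIF4EBP2 and was in module 7 as well. The gene mki67, the proliferation marker, lies next to EEF2K and was in module 2. The gene pkz, next to eif2ak2, was in no module. For EIF4EBP3 the neighbours are those of RefSeq's eif4ebp3, which may be the other copy.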

How the data were processed

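Single cells of 4 hmga1a mutant and 3 wildtype plates were sequenced by SORT-seq with CEL-Seq2 chemistry, per the labels' protocols. The submitters' processing notes name Seurat. The deposited files used here are 8 lists of Ensembl gene identifiers and 8 annotation charts. In the charts, per the file headers, the authors give the count of module genes in each term, the percent of submitted genes (not used), the fold enrichment as a ratio of shares, and a p-value with its Benjamini adjustment. The fold enrichment was checked from the counts and was within 0.1% for all 834 terms. In 35 terms the number of distinct genes listed differed from the stated count, and 0 of these terms held a restrainer. The sources used here name no build or gene annotation and do not say how the modules were made.

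Members were looked up by identifier. The module of the ribosomal genes was the one with most cytosolic ribosomal protein genes, recognised by a pattern of symbols. RPL7L1 and rps19bp1 were not counted as such. Genes without a symbol, and symbols outside the pattern such as those of b copies, were missed. Symbols came from a name table, which named 3651 of the 4449 module genes (82.1%). The 7 pathway lists, of 177 symbols, were compared exactly, ignoring case, and also without a final a or b, through RefSeq synonyms and in the first ascending run of each list. A gene of the mTORC1 list is not reported here and was left out of the counts. Members and lists were chosen with earlier results of these data known. Genes named are the members, the list genes in a module (for the stress list, those in modules holding a restrainer), up to 5 genes sharing most chart terms with a member, and flanking genes. Some genes were named outside this rule, such as DERL1, malsu1 and CNOT6L from chart terms, and ppp1r15b and TRIB3 of the stress list. No test was made, since no value per plate exists. Lookup was tested on simulated modules. Planned comparisons of plates, of protein sequences and of promoters were not made, because no values per plate and no sequences were at hand. Python 3.11.15, scipy 1.17.1 and matplotlib 3.10.9 were used.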

Additional observations from a re-analysis of the deposited data

How the results depend on the processing

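The count of restrainers in the module of the ribosomal genes was 2 in the first ascending run of each list, in the chart gene columns and with matching by symbol. The first run and the chart columns could only lose a restrainer and not move one to another module. Matching by symbol could not change the count, since the only further identifier, of eif4ebp3, lay in no module. Choosing the module by its share of ribosomal proteins also gave 2, but could give nothing else, since all of them lay in module 7. The share of all module genes in that module moved from 8.52% to 11.6% in the first runs and to 9.78% among genes named in a chart. Of the 27 chart terms with a restrainer, 10 remained at a Benjamini-adjusted p under 0.05. Of 45 pathway genes 7 lay in module 7, and 10 of 57 without a final a or b. No paired analysis was possible because the files hold no value per plate, so the replicate block was not run; the alternative for protein identity was not run either. Without levels or depth, sharing a module says nothing of how strongly a gene was expressed.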
